A study of Mus musculus with 6 samples.

Results

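The MYC, MAX and MXD network is a set of transcription factors that compete for one partner protein, and 10 of its genes were followed here: MYC, MYCN, MYCL, MAX, MXD1, MXD3, MXD4, MXI1, MNT and MGA. They were chosen by name, and all 10 were among the 14915 gene symbols of the deposited table. The series measured RNA in B16F10, a mouse melanoma cell line. Per the labels, the libraries called S127A came from B16F10 cells in which ZBTB5, a BTB and zinc finger transcription factor, carried the S127A substitution, alanine in place of a serine that can be phosphorylated (3 libraries), and the WT libraries from wild-type B16F10 cells (3 libraries). All 6 libraries came from cells given TNFα, an inflammatory cytokine, while amino acids were limited. These 6 are all the samples of the study, and none without TNFα was among them. A difference present before treatment and a different response to treatment cannot be told apart. Whether the S127A line was 1 clone is not given in the sources used here, and nothing in the labels says that replicates came from separate cultures, so p-values reflect only the spread among these libraries, which could be technical. The question behind the comparison, per the series' design text, was what loss of this phosphorylation site does to mTORC1 activation by inflammation, mTORC1 being the kinase complex that ties growth to nutrients.

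As background, MAX forms dimers with every other branch of the network through a basic helix-loop-helix leucine zipper, and these dimers bind the E-box, whose canonical form reads CACGTG. Dimers of MYC with MAX activate genes for ribosome assembly, nucleotide and polyamine synthesis and cell cycle entry, whereas dimers of MAX with MXD proteins or MNT recruit the SIN3 and histone deacetylase corepressor to the same kind of site. MGA, a very large protein with an added T-box domain, pairs with MAX in a Polycomb complex that keeps germline genes silent in body cells. A parallel branch uses MLX in place of MAX and responds to sugar phosphates.

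Some promoters of the network and of its known targets carry the E-box themselves, and these are shown because they are where the network could act on its own genes. Promoter windows of 300 bases, 250 before and 50 after the annotated start, were taken from RefSeq on GRCm38.p6 and searched for CACGTG, a palindrome that reads alike on both strands. Windows were matched for 9 of the 10 members, all but MYC, and 3 of these 9 (33.3%) held the motif, namely MAX, MNT and MXD4. Of all 27025 genes with a window 8.09% held it, and of the 7929 tested genes with a window 12.2%. A match is a description of the letters and not a measured binding site. The stretch of 250 bases before the start is shown for 1 member that rose, Mnt (chr11:74830674-74830923, plus strand), and 1 that fell, Mxd4 (chr5:34187711-34187960, minus strand), each 5′ to 3′ with the E-box in capitals.
Mnt: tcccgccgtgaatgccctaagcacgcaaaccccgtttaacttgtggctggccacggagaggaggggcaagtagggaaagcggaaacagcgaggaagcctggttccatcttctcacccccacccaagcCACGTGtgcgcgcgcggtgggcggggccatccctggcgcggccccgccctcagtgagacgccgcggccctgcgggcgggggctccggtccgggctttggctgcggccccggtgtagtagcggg
Mxd4: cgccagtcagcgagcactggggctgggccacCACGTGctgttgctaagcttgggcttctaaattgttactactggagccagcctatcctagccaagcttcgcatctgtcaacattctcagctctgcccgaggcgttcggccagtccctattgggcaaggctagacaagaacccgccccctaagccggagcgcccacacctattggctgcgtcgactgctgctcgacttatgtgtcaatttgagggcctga

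The E-box began 123 bases before the start in Mnt and 219 bases before it in Mxd4. Windows of 46 bases centred on the E-box let the flanks be compared between Max, Mlx, the cyclin-dependent kinase gene Cdk4 and the germline genes Sycp1 and Taf7l, whose levels are given further on. They lie at chr12:76962226-76962271 on the minus strand for Max, chr11:101087230-101087275 on the plus strand for Mlx, chr10:127063504-127063549 on the plus strand for Cdk4, chr3:102936169-102936214 on the minus strand for Sycp1 and chrX:134476514-134476559 on the minus strand for Taf7l.
Max: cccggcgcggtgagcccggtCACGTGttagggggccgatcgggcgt
Mlx: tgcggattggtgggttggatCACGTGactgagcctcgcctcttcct
Cdk4: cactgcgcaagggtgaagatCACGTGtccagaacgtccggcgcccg
Sycp1: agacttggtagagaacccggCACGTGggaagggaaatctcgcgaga
Taf7l: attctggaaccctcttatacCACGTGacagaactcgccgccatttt

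The values are labelled TPM, a transcript abundance scaled for gene length and within each library, so levels can be compared between genes. Log2 changes are differences of log2(TPM + 1), S127A minus WT, tested with limma. The p-values were adjusted by the Benjamini-Hochberg method over 10348 genes with a mean of at least 1 TPM. On the log2(TPM + 1) scale the change of low genes is understated. Values given as -fold higher are ratios of mean TPM instead, whereas counts at 2-fold or more use the log2 change. Errors after ± are SDs with n = 3 libraries per group. The libraries of the 2 groups stood far apart: r across tested genes was 0.998 within each group and 0.676 to 0.679 between groups, and 90.0% of tested genes passed the adjusted threshold of 0.05. ZBTB5 itself stood at 9.24, 8.24 and 9.21 TPM in S127A, against 15.9, 14.9 and 15.7 TPM in WT, a measure that does not show the substitution. The summed level of 10 melanocyte markers, 10 of which were lower, was 28.3 to 33.8 TPM in S127A and 15860 to 16170 TPM in WT. Defining markers of the labelled melanoma line were thus near 0 or low in the libraries labelled S127A, with SOX10 at 0.603 TPM and PMEL at 4.44 TPM against 341 TPM and 3103 TPM in WT. The summed level of 10 fibroblast markers was 317 to 329 TPM in S127A, most of it COL1A2 (274.7 TPM), and 28.7 to 31.0 TPM in WT, with LUM at 0 in S127A and DCN at 0 in WT. Of the 7 tested 6 were higher, COL5A1 among them at 16.3 TPM in S127A against 13.2 TPM in WT, and POSTN was lower, at 0.0667 TPM in S127A against 7.79 TPM in WT. Of 12 immune markers 9 were listed, with sums of 48.97 to 52.9 TPM in S127A, nearly all of it CD14, and 8.11 to 9.29 TPM in WT, and the pan-leukocyte gene PTPRC stayed at or below 0.1 TPM in every library. Of 10 endothelial and epithelial markers 9 were listed, with sums of 63.7 to 64.1 TPM in S127A, nearly all of it KRT18, and 1.37 to 1.76 TPM in WT. These markers moved with every result below, their part in those results was not tested, and genotype and this difference between the libraries cannot be told apart. Whether the libraries labelled S127A derive from the labelled B16F10 line was not tested, and each fold below compares libraries as labelled. In bulk RNA a change in the cells present and a change in RNA per cell cannot be told apart either.

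MYC, the activating arm of the network, was the member with the largest change and its most abundant transcript in S127A. MYC (ENSMUSG00000022346.15, chromosome 15, 61985391 to 61990374, plus strand, mm10) stood at 181.56, 195.38 and 183.37 TPM in S127A, against 32.46, 32.5 and 36.28 TPM in WT. The lowest S127A library held far more than the highest WT library. The mean was 186.8 ± 7.51 TPM in S127A and 33.75 ± 2.19 TPM in WT (SD, n = 3 each), 5.53-fold higher, with a log2 change of 2.44 (SE 0.0491, adjusted p = 2.87e-12 by limma). Permuting the 6 TPM values in an exact two-sided test gave p = 0.1, the lowest that 3 against 3 can reach. Ranked within its own library, MYC lay at percentile 95.2 to 95.7 of all listed symbols in S127A and at percentile 68.0 to 70.5 in WT. Of all tested genes 5.28% had a larger rise than MYC.

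Its paralogs MYCN, known from neuroblastoma and the embryo, and MYCL, known from small cell lung cancer, were at or near 0. MYCN was listed at 0 in the 3 S127A libraries and at 0.05, 0 and 0.05 TPM in WT. MYCL was listed at 0 in the 3 S127A libraries and at 0.07, 0.04 and 0 TPM in WT. Both lay under the mean of 1 TPM required for testing, so the MYC family in these cells was in practice MYC alone.

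MAX, the shared partner, moved the other way. MAX (ENSMUSG00000059436.13, chromosome 12, 76937269 to 76962201, minus strand) stood at 64.58, 60.44 and 66.3 TPM in S127A, against 85.81, 87.64 and 86.56 TPM in WT. The groups did not overlap, and the WT libraries lay within a narrow band. MAX fell by 0.44 in log2 units (SE 0.0398, adjusted p = 1.11e-06 by limma), the smallest fall among the members that fell.

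The 4 MXD genes, whose proteins rise in many lineages as cells stop dividing, split. MXD1 (chromosome 6, 86647042 to 86669161, minus strand), the founding member, also known as MAD, held 3.72, 3.57 and 3.39 TPM in S127A, against 6.79, 7.91 and 8.14 TPM in WT. It was the lowest of the tested members in both groups and fell by 0.91 in log2 units (SE 0.0771, adjusted p = 5.71e-07 by limma). As a low gene its change depended on the pseudocount, at −1.07 with 0.1 and −0.56 with 5 in place of 1.

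MXD3 (chromosome 13, 55325168 to 55329823, minus strand), which unlike its relatives is known from dividing S-phase cells, held 12.18, 15.79 and 12.31 TPM in S127A, against 22.17, 18.58 and 23.72 TPM in WT. It varied most among replicates of the tested members, with a coefficient of variation of 15.3% in S127A and 12.3% in WT, and the nearest libraries of the 2 groups were 15.79 and 18.58 TPM. Its log2 change of −0.64 passed (SE 0.106, adjusted p = 0.000161 by limma). Its exons share 105 bases (4.43%) with PRELID1 on the opposite strand, which stood at 539 TPM in S127A and 631 TPM in WT. The strand setting is not given in the sources used here, and without strand the reads of such a pair cannot be told apart.

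MXD4 (chromosome 5, 34173883 to 34187720, minus strand) held 23.53, 22.41 and 26.56 TPM in S127A, against 46.11, 44.64 and 44.05 TPM in WT. WT was 1.86-fold higher with no overlap, and the log2 change was −0.87 (SE 0.0594, adjusted p = 8.8e-08 by limma). The antisense gene Gm42846 covers 6.06% of its exon bases.

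MXI1 was the exception among the MXD genes. MXI1 (chromosome 19, 53310518 to 53375810, plus strand), first described as the MAX interactor and also called MXD2, held 37.88, 39.75 and 40.98 TPM in S127A, against 34.16, 30.91 and 29.74 TPM in WT. The groups did not overlap, and it rose by 0.32 in log2 units (SE 0.0559, adjusted p = 0.000271 by limma), the smallest change of the 8 tested members. It has several annotated starts, which TPM per gene does not separate, and 2.84% of its exon bases overlap a gene on the opposite strand, Gm10197.

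MNT and MGA, the larger MAX partners, were higher in S127A. MNT (chromosome 11, 74830920 to 74845725, plus strand), a repressor made in dividing and resting cells alike that holds MYC activity in check, stood at 30.53, 31.09 and 33.39 TPM in S127A, against 22.77, 22.54 and 24.24 TPM in WT (log2 change 0.43, SE 0.0509, adjusted p = 9.97e-06 by limma). MGA (chromosome 2, 119897228 to 119969581, plus strand) stood at 32.78, 30.16 and 32.5 TPM in S127A, against 15.19, 15.68 and 14.94 TPM in WT. Its replicates were tight in both groups, and the mean was 2.08-fold higher (log2 change 1.01, SE 0.0502, adjusted p = 5.47e-09 by limma). On the log2(TPM + 1) scale MGA lay at the 2-fold line: it was 0.990 without S127A replicate 1, 0.996 without S127A replicate 3, 0.997 without WT replicate 3 and 0.860 with a pseudocount of 5.

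**Figure D1:**
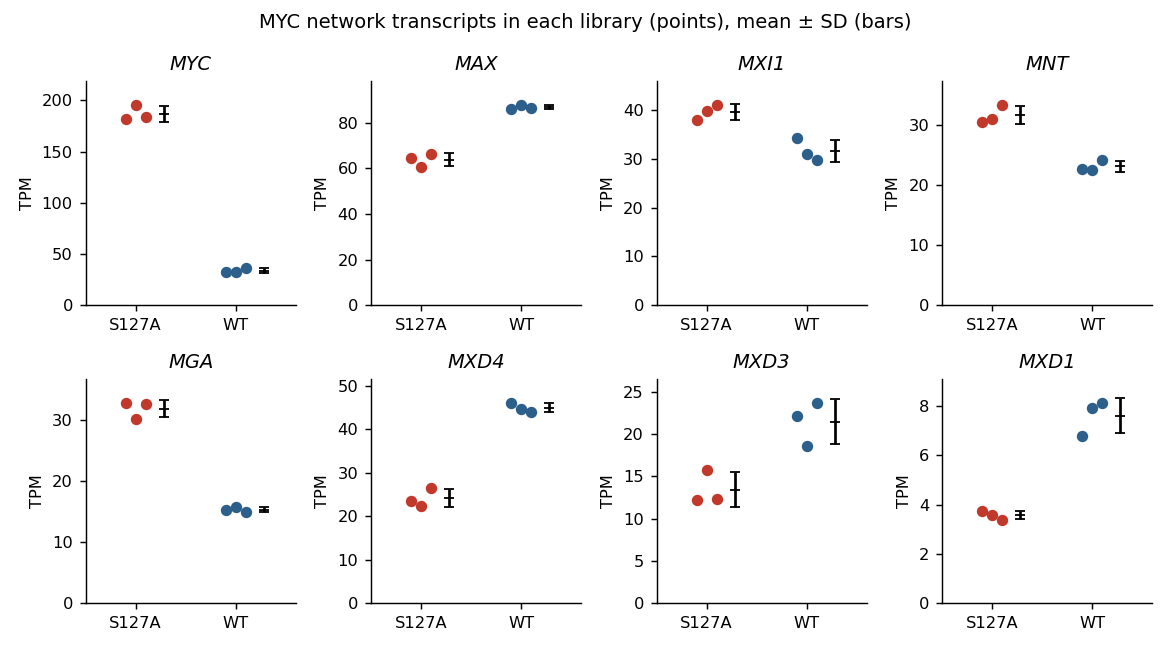
TPM of the 8 tested network members, with S127A at the left and WT at the right of each panel; points are libraries and bars the mean ± SD (n = 3 each). MYC reached 181.56 to 195.38 TPM in S127A against 32.46 to 36.28 TPM in WT, and in no panel do the groups overlap.

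Over the members as a whole, 8 of 10 had a mean of at least 1 TPM and so were tested, and all 8 passed, 4 higher (MYC, MGA, MNT and MXI1) and 4 lower (MAX, MXD1, MXD3 and MXD4). Among all tested genes 40.2% were higher and 49.8% lower, so the share of members called is close to that of any gene here. The groups did not overlap for 8 of the 8, as for 90.2% of all tested genes. At 2-fold or more on the log2(TPM + 1) scale 2 members were higher and none lower, beside 15.5% and 19.9% of all tested genes (35.4% in either direction). That count rests on the pseudocount of 1. By mean TPM MXD1 was 2.14-fold higher in WT, and its log2 change was −1.07 with a pseudocount of 0.1. The direction of each of the 8 was the same under TMM scaling, quantile normalization and a common total.

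**Figure D2:**
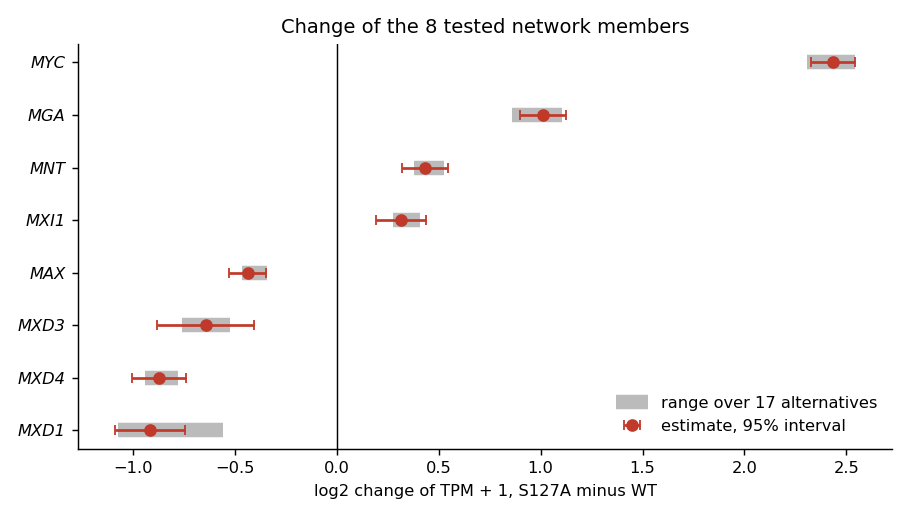
Log2 change of TPM + 1, S127A minus WT, for the 8 tested members; points are the estimates, whiskers the 95% confidence intervals of limma and grey bars the range over 17 alternative settings. MYC stands at 2.44, 4 members lie below 0, and no interval or range crosses 0.

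The order of levels differed between the groups. In S127A the order was MYC, MAX, MXI1, MGA, MNT, MXD4, MXD3 and MXD1, and only MGA (31.8 TPM) and MNT (31.7 TPM) overlapped as neighbours. In WT it was MAX, MXD4, MYC, MXI1, MNT, MXD3, MGA and MXD1, where MYC overlapped MXI1 (31.6 TPM) and MNT (23.2 TPM) overlapped MXD3 (21.5 TPM). MXD4, ahead of all other MAX partners in WT, was below 4 of them in S127A.

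Ratios within a library do not depend on its total and give the relative transcript levels of the MAX partners. They do not measure competition for the MAX protein. The MYC family made up 56.4 ± 1.32% of the summed TPM of all MAX partners in S127A and 19.0 ± 0.976% in WT. The MXD family made up 24.4 ± 0.566% in S127A and 59.4 ± 1.25% in WT. MNT took 9.57 ± 0.431% in S127A and 13.03 ± 0.355% in WT. MGA took 9.62 ± 0.639% in S127A and 8.59 ± 0.431% in WT, and the libraries of the 2 groups overlapped in this share.

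The partners that oppose MYC differed in makeup, while their sums overlapped between the groups. MXD1, MXD3, MXD4, MXI1, MNT and MGA summed to 140.6, 142.8 and 149.1 TPM in S127A, against 147.2, 140.3 and 144.8 TPM in WT. These ranges overlap, with means of 144.2 ± 4.41 TPM in S127A and 144.1 ± 3.50 TPM in WT. Within that sum, the 4 MXD genes held 80.7 ± 3.05 TPM in S127A and 105.6 ± 3.6 TPM in WT, and MNT and MGA together stood at 0.787 ± 0.034 times the MXD sum in S127A and 0.364 ± 0.0147 times in WT. The ratio of the opposing sum to the MYC family was 0.774, 0.731 and 0.813 in S127A, against 4.52, 4.31 and 3.99 in WT. Transcripts of the opposing partners were thus fewer than those of MYC in each S127A library and about 4 times as many in each WT library. These sums and ratios are a description without a p. The members were chosen with results known, which also limits the p-values given for single members, and RNA levels are not protein amounts.

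MAX was lower in S127A, while the sum of its partners was higher. That rise lay in MYC, as the other partners together averaged 144.2 TPM in S127A and 144.1 TPM in WT. MAX stood at 0.193 ± 0.0123 times the summed partners in S127A and 0.487 ± 0.0171 times in WT. MYC alone was 2.94 ± 0.258 times the level of MAX in S127A and 0.389 ± 0.026 times in WT, so MYC transcripts outnumbered MAX transcripts in the S127A libraries only, among these 6.

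**Figure D3:**
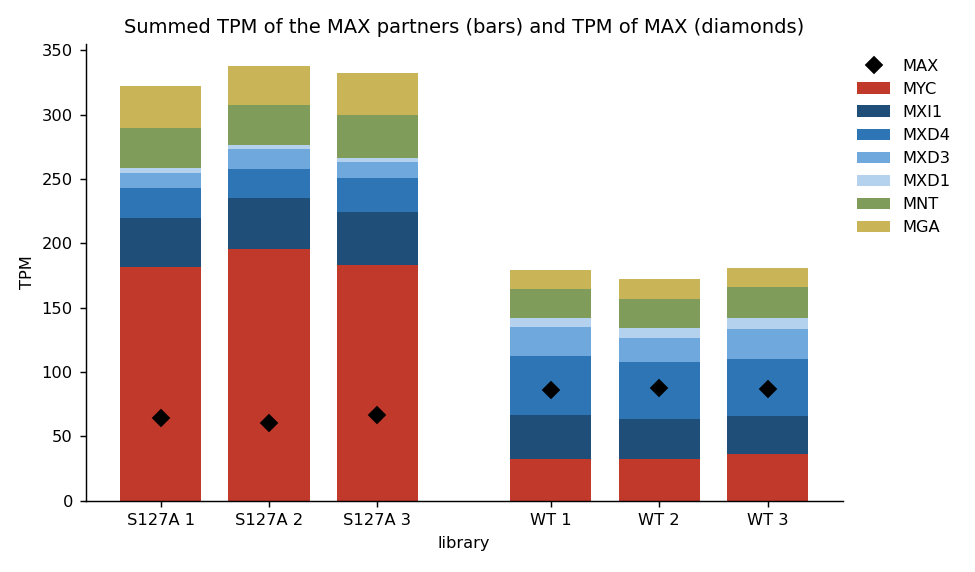
Summed TPM of the MAX partners in each library, stacked by gene, S127A libraries at the left and WT at the right; diamonds give the TPM of MAX. The stacks reach 322 to 338 TPM in S127A and 173 to 181 TPM in WT, and the MYC block is the one that differs most, while the other blocks together average 144.2 TPM in S127A and 144.1 TPM in WT.

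The MLX branch, which mirrors the MAX branch, was given by 5 genes. MLX, the shared partner of that branch, held 35.93, 33.64 and 34.99 TPM in S127A, against 66.21, 64.46 and 66.96 TPM in WT, with a log2 change of −0.90. The groups did not overlap. Of the exon bases of MLX 19.3% are shared with PSMC3IP on the opposite strand, which was also lower in S127A (21.7 TPM against 33.0 TPM in WT). MLXIP, or MondoA, a sensor of glucose 6-phosphate, held 27.16, 27.65 and 28.82 TPM in S127A, against 19.54, 18.51 and 18.44 TPM in WT, and rose by 0.54. MLXIPL, or ChREBP, its relative in liver and fat, held 1.45, 1.49 and 1.85 TPM in S127A, against 0, 0.03 and 0.07 TPM in WT, and lay below the mean needed for a test. TXNIP, a brake on glucose uptake and a known direct target of MLXIP, held 578.72, 582.03 and 571.64 TPM in S127A, against 77.01, 81.72 and 77.5 TPM in WT, 7.33-fold higher with a log2 change of 2.86 (SE 0.0314, adjusted p = 3.94e-14 by limma). ARRDC4, the other classic target, stayed near 0 in both groups, at 0.0367 TPM in S127A and 0.01 TPM in WT on average.

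Genes that MYC is known to induce went both ways. Of 63 such genes 62 were listed and tested, 36 higher (58.1%), 20 lower (32.3%) and 6 not past the threshold, with a median log2 change of 0.24 beside −0.12 over all tested genes. Of all tested genes 40.2% were higher and 49.8% lower. Under the 3 other scalings 37 to 41 were higher and 17 to 19 lower. At 2-fold or more 5 of the 62 were higher and 7 lower, where 15.5% and 19.9% of all tested genes were. ODC1, the rate-limiting enzyme of polyamine synthesis and a classic E-box target, held 1558.43, 1636.79 and 1569.86 TPM in S127A, against 357.45, 370.09 and 373.16 TPM in WT (4.33-fold higher, log2 change 2.11, adjusted p = 2.25e-13 by limma). NCL, the nucleolar protein nucleolin, rose less, to 532 ± 19.4 TPM in S127A against 463 ± 11.4 TPM in WT. CDK4, a G1 kinase whose window of 300 bases held 4 E-boxes, of which the one nearest the start is shown above, stood at 507 ± 7.72 TPM in S127A and 413 ± 3.76 TPM in WT (log2 change 0.30).

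Other well-known MYC targets were lower where MYC was high. CAD, which opens pyrimidine synthesis, stood at 54.2 ± 1.33 TPM in S127A and 74.9 ± 1.72 TPM in WT (log2 change −0.46). CCND2, a D-type cyclin, stood at 140.3 ± 2.95 TPM in S127A and 519.7 ± 1.02 TPM in WT (log2 change −1.88). TFRC, the transferrin receptor, stood at 29.1 ± 0.504 TPM in S127A and 294 ± 16.5 TPM in WT (log2 change −3.30), and the sorbitol dehydrogenase SORD at 7.53 ± 0.513 TPM in S127A and 73.3 ± 1.63 TPM in WT (log2 change −3.12). Each of these 4 passed (adjusted p = 3.2e-07 or less by limma).

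Genes that MYC is known to repress also went both ways, 5 of 8 tested members being higher and 3 lower, beside 40.2% of all tested genes higher and 49.8% lower. Their median log2 change was 0.66. The 5 included NDRG1, a differentiation and stress gene, at 253 ± 4.28 TPM in S127A and 36.8 ± 1.95 TPM in WT, the growth arrest gene GADD45A at 293 ± 7.51 TPM in S127A and 54.3 ± 2.87 TPM in WT, and the secreted chaperone CLU at 14.96 ± 0.702 TPM in S127A and 0.41 ± 0.178 TPM in WT. The 3 lower genes were all inhibitors of cyclin-dependent kinases. CDKN1A (p21) held 427.88, 423.76 and 440.66 TPM in S127A, against 658.45, 631.97 and 652.36 TPM in WT. CDKN1B (p27) stood at 33.1 ± 0.539 TPM in S127A and 84.97 ± 5.82 TPM in WT, and CDKN2C (p18) at 25.5 ± 1.18 TPM in S127A and 74.0 ± 1.54 TPM in WT. CDKN1A is also known as a direct target of p53.

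**Figure D4:**
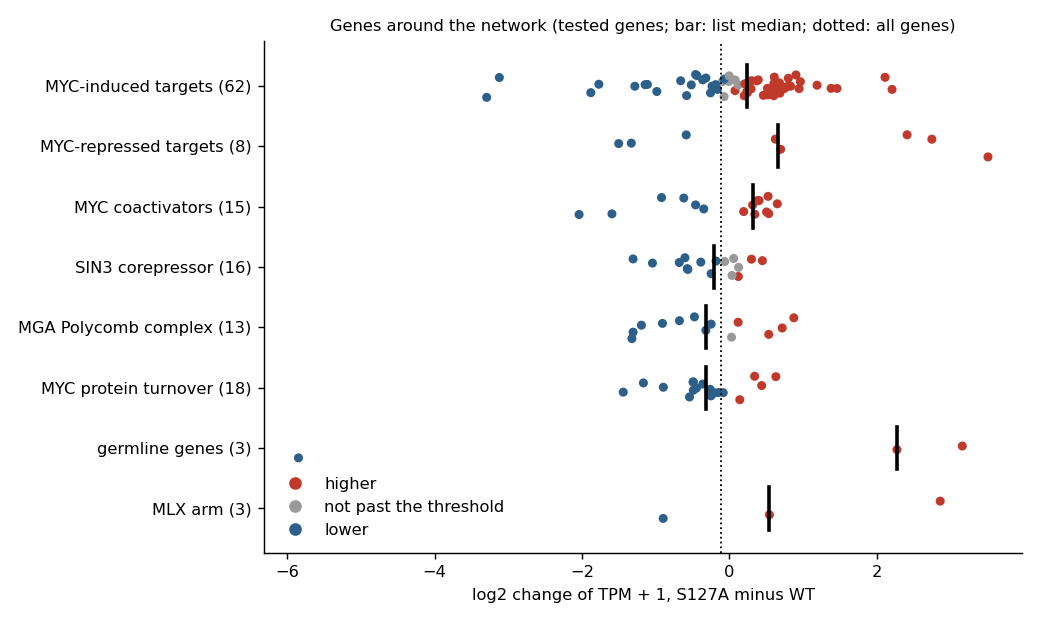
Log2 change of TPM + 1, S127A minus WT, of each tested gene in 8 lists around the network; red points were higher, blue lower and grey not past the threshold, black bars are list medians and the dotted line the median of all tested genes (−0.12). The MYC-induced targets spread on both sides, 36 higher and 20 lower.

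Cofactors of MYC include factors that open chromatin or release paused polymerase, and ZBTB17, tied to repression, was counted with them. Of 15 tested members 9 were higher and 6 lower (median log2 change 0.31), beside 40.2% of all tested genes higher and 49.8% lower. TRRAP, the scaffold of its acetyltransferase complexes, held 44.04, 44.69 and 47.52 TPM in S127A, against 38.69, 40.87 and 39.27 TPM in WT (log2 change 0.19, adjusted p = 0.00155 by limma). ZBTB17, or MIZ1, the BTB zinc finger protein through which MYC represses genes, held 11.89, 12.08 and 13.47 TPM in S127A, against 54.6, 54.69 and 53.88 TPM in WT (log2 change −2.04, adjusted p = 2.07e-11 by limma). ZBTB17 thus had the largest change of the list and went the opposite way to MYC. ACTL6A, an actin-like subunit, stood at 43.6 ± 2.26 TPM in S127A and 133.7 ± 1.68 TPM in WT, the acetyltransferase KAT2A at 54.9 ± 1.51 TPM in S127A and 104.8 ± 3.4 TPM in WT, and HCFC1 at 54.9 ± 1.38 TPM in S127A and 84.8 ± 2.44 TPM in WT.

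The SIN3 corepressor, the machinery of MXD and MNT, was lower for 9 of 16 genes and higher for 3 (SAP130, RBBP7 and ING1), with 4 not past the threshold and a median log2 change of −0.22. The share lower, 56.3%, lies near the 49.8% of all tested genes that were lower, and 40.2% of all were higher. Rescaling moved the number higher to 5 (TMM factors), 6 (quantile normalization) or 4 (a common total). SIN3A, the scaffold bound by MXD proteins, held 37.85, 37.12 and 38.48 TPM in S127A, against 42.03, 44.67 and 42.46 TPM in WT (log2 change −0.18, adjusted p = 0.00141 by limma). The deacetylase HDAC2 held 81.0, 73.23 and 74.08 TPM in S127A, against 196.73, 184.57 and 188.07 TPM in WT (log2 change −1.31). The histone chaperone RBBP4 stood at 93.1 ± 1.6 TPM in S127A and 139.0 ± 1.84 TPM in WT, and its near relative RBBP7 went the other way, at 241 ± 5.08 TPM in S127A and 177 ± 1.5 TPM in WT. SUDS3 stood at 58.1 ± 2.05 TPM in S127A and 88.9 ± 0.811 TPM in WT.

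The Polycomb complex of MGA was lower for 8 of 13 genes, higher for 4 (PCGF6, RING1, TFDP1 and WDR5) and not past the threshold for 1, with a median log2 change of −0.32, against 49.8% lower and 40.2% higher among all tested genes. PCGF6, the subunit that defines this complex, held 39.39, 39.35 and 40.05 TPM in S127A, against 21.05, 22.03 and 20.43 TPM in WT (1.87-fold higher, log2 change 0.87, adjusted p = 6.32e-09 by limma). PCGF6 and MGA were thus both higher. Their groups did not overlap, as for 90.2% of all tested genes in either direction. The other specific subunits were lower: L3MBTL2 held 21.98, 21.08 and 21.95 TPM in S127A, against 50.62, 51.05 and 51.01 TPM in WT, and E2F6, which guides the complex to DNA, held 19.3, 18.12 and 17.68 TPM in S127A, against 48.52, 46.05 and 47.81 TPM in WT. HDAC1 and HDAC2 are counted in this list and in that of SIN3, and WDR5 in this list and in that of the MYC cofactors.

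Germline genes of the kind that this complex silences were mostly near 0. Of 19 such genes 14 were listed and 3 reached a mean of 1 TPM, which depended on the group where each was high. SYCP1, a protein of the synaptonemal complex of meiosis, held 9.51, 7.39 and 7.09 TPM in S127A and was listed at 0 in the 3 WT libraries. TAF7L, a germ cell subunit of TFIID, held 3.3, 4.14 and 4.46 TPM in S127A, against 0.07, 0 and 0 TPM in WT. TDRKH, a Tudor protein of the piRNA pathway, held 0.1, 0.2 and 0.2 TPM in S127A, against 66.56, 63.55 and 68.45 TPM in WT. The other 11 listed genes averaged below 1 TPM over the libraries. All 19 had a promoter window and 12 of them (63.2%) held CACGTG, among them those of SYCP1 and TAF7L shown above, beside 8.09% of all genes.

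Genes that govern turnover of the MYC protein were lower for 14 of 18 tested members. The 4 higher were HUWE1, USP36, AXIN1 and PPP2R5A, and the median log2 change was −0.31. This list pools genes that favour and genes that oppose destruction of the protein, so the count has no single direction for MYC protein, which was not measured. Among all tested genes 49.8% were lower and 40.2% higher, and of the 18 turnover genes 11 to 12 were lower under the 3 other scalings. FBXW7, the F-box protein that marks phosphorylated MYC for destruction, held 12.45, 12.48 and 13.58 TPM in S127A, against 18.03, 17.98 and 17.64 TPM in WT (log2 change −0.45, adjusted p = 1.14e-05 by limma). The mitotic kinase AURKA, known to shield MYCN from FBXW7, stood at 55.3 ± 1.45 TPM in S127A and 103.8 ± 0.889 TPM in WT. The kinase PLK1 stood at 46.4 ± 0.682 TPM in S127A and 127.7 ± 5.3 TPM in WT, and the F-box protein FBXO32 at 0.757 ± 0.0603 TPM in S127A and 2.95 ± 0.223 TPM in WT. The ubiquitin ligase HUWE1 was higher, at 90.9 ± 3.43 TPM in S127A and 58.4 ± 1.72 TPM in WT.

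The E-box was about equally frequent in the promoter windows of genes that were higher and lower. It was present in 12.2% of the 3046 higher genes, 12.2% of the 4068 lower genes and 12.0% of the 815 genes not past the threshold. The median log2 change was −0.16 over 967 tested genes with the motif and −0.15 over 6962 without. Among the MYC-induced genes 15 of 54 with a window (27.8%) held it. The network members with the motif also differed in direction, since MNT rose and MAX and MXD4 fell. The absence of these letters from a window says nothing of binding elsewhere in a gene.

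The profiles nearest to MYC over the 6 libraries were those of SLC35D2, PAX2 and TNFAIP2, by root mean square distance of centred log2(TPM + 1) (0.0214, 0.0343 and 0.0375), and this likeness rests mainly on the difference between the groups. TNFAIP2, a TNF-induced gene, held 251.93, 273.95 and 266.23 TPM in S127A, against 43.9, 45.84 and 49.2 TPM in WT. SLC35D2, a nucleotide sugar transporter, held 22.56, 24.88 and 23.11 TPM in S127A, against 3.51, 3.34 and 3.83 TPM in WT. PAX2, a kidney transcription factor, held 4.58, 5.01 and 4.51 TPM in S127A, against 0.03, 0 and 0.07 TPM in WT. By mean TPM PAX2 was 141-fold higher and MYC 5.53-fold, so the nearness of PAX2 to MYC rests on the pseudocount of 1.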

How the data were processed

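RNA-seq libraries were grouped by their titles, 3 S127A and 3 WT. The values deposited by the authors are TPM for each gene symbol, per the file headers. The build was mm10 (the submitters' processing notes), and the tools and annotation behind the table are not given in these sources. Over all 14915 symbols columns summed to 830745 to 833332 TPM in S127A and 862949 to 864529 TPM in WT. Where the rest of each library's TPM lies is not given in these sources. The symbols are in the style of human genes, HLA-F and ZNF624 among them. Regardless of case, 14017 of the 14915 matched a mouse gene name in GENCODE. Mouse gene models and promoter windows were paired with values by such a match of symbols. TPM keeps no depth, so no counting error is given.

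Genes with a mean of at least 1 TPM were tested on log2(TPM + 1) with limma 3.58.1 in R 4.3.3 (trend, two-sided, genotype only), adjusted over 10348 genes at 0.05. The fit was also run on simulated data in which only a small part of the genes changed. Since most genes passed here, that run does not show how the fit performs on these data. Alternatives were pseudocounts of 0.1 and 5, no filter, a mean of at least 5 TPM, TMM factors (trimmed mean of log ratios, on TPM), quantile normalization, a common total, no trend, robust hyperparameters, identical symbols once, a block for replicate number and each library left out in turn. Gene models come from GENCODE on mm10.

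The members and lists were chosen with earlier results of these data known. The text names all members, a fixed panel, and per list up to 4 genes with the smallest adjusted p and minorities of up to 5. Python 3.11.15 made the figures and summaries.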

Additional observations from a re-analysis of the deposited data

How the results depend on the processing

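The 8 tested members kept their direction and passed the threshold in all 17 alternatives (136 of 136 values). MYC ranged between 2.31 and 2.54 on the log2 scale, MAX between −0.47 and −0.34, MXD1 between −1.07 and −0.56, MXD3 between −0.76 and −0.52, MXD4 between −0.94 and −0.78, MXI1 between 0.27 and 0.41, MNT between 0.38 and 0.53 and MGA between 0.86 and 1.10, and the highest adjusted p was 0.00193 for MXI1 and 0.00158 for MXD3. The count of changed genes lay between 8159 and 10593, ends set by the filter. The lower was of 9053 genes tested with a mean of at least 5 TPM, the higher of 14385 with no filter. In 2 lists, 3 counts moved by over 1.5 times: SIN3 corepressor genes higher numbered 3, and 5 with TMM factors and 6 with quantile normalization; germline genes lower numbered 1, and 2 with no filter; germline genes higher numbered 2, and 0 with a mean of at least 5 TPM, which tests fewer genes. Leaving out single libraries gave ratios of the opposing sum to the MYC family of 0.753 to 0.794 in S127A and 4.15 to 4.41 in WT. The labels share replicate numbers 1 to 3. Deviations of same-numbered libraries correlated at 0.117, 0.0174 and 0.0279, and those of differently numbered libraries at −0.0757 to 0.0544. These values do not settle whether the numbers pair samples. The labels do not say so, and the main fit did not pair them. The replicate block called 9339 genes, against 9315 without it, and changed no member's call. With 3 libraries in each group the block cannot move the log2 changes. What limits the low members MYCN, MYCL and MLXIPL is their level, with a depth that TPM does not show.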
